A study of Mus musculus with 3 samples.

Results

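The TNF receptor family is a set of cell surface receptors that bind trimeric ligands of the TNF family. Of its genes, 8 were followed in migratory dendritic cells, out of 22548 genes counted: Cd40, Tnfrsf4 (OX40), Tnfrsf9 (4-1BB), Tnfrsf11a (RANK), Tnfrsf1a (TNF receptor 1), Tnfrsf1b (TNF receptor 2), Fas and Ltbr (lymphotoxin beta receptor). They were chosen by name, and their levels were read for each sorted population and for each level of an antibody tag.

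Mice received MC903, an analogue of vitamin D used to inflame skin, on days 0, 2 and 4, and the nodes that drain the ear were taken for sorting on day 5. All mice carried a Cre recombinase driven by Siglech (SiglechiCreTg/0), a red reporter at ROSA26 that is switched on for good once Cre has acted (ROSA26LoxP-STOP-LoxP-RFP), and a blue reporter in 1 copy of Tnfsf4, the gene of OX40L (Tnfsf4KI/+). RFP therefore records past Cre activity and not present Siglech expression, and every population, the double negative one included, had 1 modified Tnfsf4 copy. The gate kept B220-, MHC class II high, CD11c low to intermediate, XCR1- and CD326- cells, which were meant to be neither Langerhans cells nor type 1 conventional dendritic cells. Sorted groups were BFP+RFP+ and BFP-RFP+, then BFP+RFP- and BFP-RFP-. Each got its own hashtag antibody, and every cell was stained with tagged antibodies against CD11b, CD8a, CD172a and CD301b. No untreated group was analysed here, and neither the number nor the age of the mice is given in the sources used here.

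Messenger RNA, antibody tags and hashtags were read as 3 libraries of 1 pool, so each population is 1 sample. No test between populations is possible and no p-value is given. Levels are UMIs (unique molecular identifiers) per 1000000 mRNA UMIs, written CPM, summed over the cells of a population. Intervals are exact 95% intervals that cover counting error only, not the spread between mice, sorts or captures. Those of levels and ratios take each UMI as independent, so they leave out the spread between cells as well and are too narrow where few cells hold many UMIs.

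Of 6079 barcodes, which all 3 libraries share, 5023 were kept, with 842 cells in BFP+RFP+, 982 in BFP-RFP+, 2185 in BFP+RFP- and 1014 in BFP-RFP-. A kept cell had at least 80% of its hashtag UMIs in 1 hashtag, 1000 or more mRNA UMIs and no more than 10% of them mitochondrial. Median depth lay between 13884 and 15182 mRNA UMIs per cell. Dendritic cell genes marked nearly all of them: Ccr7, the chemokine receptor that guides migration to lymph nodes, had a UMI in 96.2% of cells, and Fscn1, an actin bundling protein of mature dendritic cells, in 93.8%. The Langerhans cell gene Cd207 and the type 1 dendritic cell gene Xcr1 were near 0, at 9 and 11 UMIs in all. In all, 482 kept cells, between 8.68% and 9.93% of each population, had at least 5 UMIs of genes that mark T and NK cells (329 cells), B cells (107 cells) or macrophages (53 cells). The macrophage list, C1qa to Cd163, differed between populations, at 19.0 CPM in BFP+RFP+, 77.1 in BFP-RFP+, 20.9 in BFP+RFP- and 136 in BFP-RFP- cells. Its C1q genes made this pattern, with C1qa at 7.07, 30.4, 8.32 and 53.2 CPM in that order. Cd163 was at 0.28, 1.02, 1.46 and 1.21 CPM, Cd5l at 0.50, 0.95, 0.48 and 0.13, and Vsig4 at 0 in all of them. Macrophage gene cells had more Cd5l than kept cells without genes of other lineages, 20.5 against 0.22 CPM, but not more Cd163, 0.89 against 1.11. The T and NK list stood at 146, 212, 192 and 142 CPM in the same order of populations, and the B list at 45.3, 29.0, 52.5 and 36.0 CPM.

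The population and the tag level of each cell were both set by the counts of short DNA barcodes on antibodies, so these barcodes define the groups compared. Each is 15 bases long and is given 5′ to 3′.
Hashtag 1, BFP+RFP+: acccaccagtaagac
Hashtag 2, BFP-RFP+: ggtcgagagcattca
Hashtag 3, BFP+RFP-: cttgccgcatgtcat
Hashtag 4, BFP-RFP-: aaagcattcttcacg
CD11b tag: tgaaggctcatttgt
CD8a tag: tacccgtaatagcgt
CD172a tag: gattcccttgtagca
CD301b tag: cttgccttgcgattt

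Receptors of this family fall into those that recruit TRAF adaptors directly, such as CD40, OX40, 4-1BB, RANK, TNF receptor 2 and the lymphotoxin beta receptor, and those with a death domain in the tail, such as Fas and TNF receptor 1. In dendritic cells CD40 receives CD40 ligand from helper T cells, RANK prolongs survival, and the lymphotoxin beta receptor takes part in dendritic cell homeostasis. OX40 and 4-1BB are best known as costimulatory receptors of activated T cells, whose ligands OX40L and 4-1BBL dendritic cells can present.

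All 8 genes were detected in all 4 populations, with 450 UMIs for Tnfrsf1a at the low end and 26618 for Tnfrsf11a at the high end. Counts from the 3' end do not rank different genes by their abundance, so levels are compared between cells for 1 gene at a time. The largest spread between populations was that of Tnfrsf1a, whose highest level was 1.96-fold its lowest, and the smallest was that of Tnfrsf11a, at 1.09-fold.

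Cd40, the receptor for CD40 ligand, stood at 187 CPM (95% interval 180 to 194) in BFP+RFP+, 262 (254 to 270) in BFP-RFP+, 226 (222 to 231) in BFP+RFP- and 238 (231 to 246) in BFP-RFP- cells. Cells with both reporters were thus the lowest and cells with RFP alone the highest, and each step in the order of levels exceeded counting error. The share of cells with Cd40 differed less than the level. After each cell was thinned to 5000 mRNA UMIs, which left out 377 shallower cells (56, 82, 153 and 86 in the same order), 44.9%, 47.1%, 43.8% and 44.3% of cells had a Cd40 UMI. The Cd40 UMIs were held by few cells: the top 10% of cells held 49.3% of them in BFP+RFP+, 53.3% in BFP-RFP+, 54.1% in BFP+RFP- and 57.3% in BFP-RFP- cells.

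Tnfrsf4 encodes OX40, the receptor for the ligand that the BFP reporter marks. It was at 161 CPM (154 to 167) in BFP+RFP+, 144 (138 to 150) in BFP-RFP+, 142 (138 to 146) in BFP+RFP- and 124 (118 to 130) in BFP-RFP- cells. Double positive cells were highest and double negative cells lowest, and the middle populations did not differ beyond counting error. The thinned share of cells followed the same order, at 42.2%, 36.6%, 35.6% and 29.1%. T cells express Tnfrsf4, and the cell with the most Tnfrsf4, 162 UMIs, was a BFP+RFP- cell with 372 UMIs of the T and NK list among 104448 mRNA UMIs. Without all cells with genes of other lineages the levels were 162, 150, 137 and 130 CPM, with BFP-RFP+ above BFP+RFP- cells.

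Tnfrsf9, which encodes 4-1BB, had nearly the same pattern, at 138 CPM (132 to 144) in BFP+RFP+, 111 (106 to 117) in BFP-RFP+, 113 (109.5 to 117) in BFP+RFP- and 99.8 (94.8 to 105) in BFP-RFP- cells. Its thinned shares were 43.6%, 37.9%, 37.4% and 33.4%. As for Tnfrsf4, the populations with a single reporter were within counting error of each other. Fas, the death receptor, was also highest in BFP+RFP+ cells, at 201 CPM (194 to 209), against 171 (164 to 177) in BFP-RFP+, 178 (174 to 183) in BFP+RFP- and 165 (159 to 172) in BFP-RFP- cells. The Fas levels of BFP-RFP+ and BFP-RFP- cells overlapped within counting error, as did their thinned shares of 50.2% each, while BFP+RFP+ and BFP+RFP- cells had 58.5% and 55.3%.

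Tnfrsf1b, which encodes TNF receptor 2, went the other way. It was lowest in BFP+RFP+ cells at 145 CPM (139 to 151), then 168 (162 to 175) in BFP-RFP+, 162 (158 to 166) in BFP+RFP- and 188 (182 to 196) in BFP-RFP- cells. Its thinned shares had the same extremes, 44.7% in BFP+RFP+ and 55.0% in BFP-RFP- cells. Tnfrsf11a, the receptor for RANK ligand, was close to even, at 312 CPM (303 to 321) in BFP+RFP+, 331 (322 to 340) in BFP-RFP+, 336 (330 to 342) in BFP+RFP- and 339 (330 to 349) in BFP-RFP- cells. Between 68.6% and 70.8% of thinned cells had a Tnfrsf11a UMI.

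Tnfrsf1a and Ltbr were sparse, with UMIs in 7.01% and 11.5% of all kept cells before thinning. Tnfrsf1a, the death domain receptor for TNF, had 4.31 CPM (3.30 to 5.54) in BFP+RFP+, 5.97 (4.82 to 7.31) in BFP-RFP+, 4.75 (4.06 to 5.52) in BFP+RFP- and 8.47 (7.06 to 10.1) in BFP-RFP- cells, on 61, 94, 169 and 126 UMIs. Only the step between BFP-RFP- and BFP-RFP+ cells in this order exceeded counting error. Ltbr had 6.86 CPM (5.56 to 8.37) in BFP+RFP+, 8.0 (6.67 to 9.53) in BFP-RFP+, 7.90 (6.999 to 8.87) in BFP+RFP- and 9.14 (7.67 to 10.8) in BFP-RFP- cells, and none of its neighbours in the order differed beyond counting error.

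**Figure D1:**
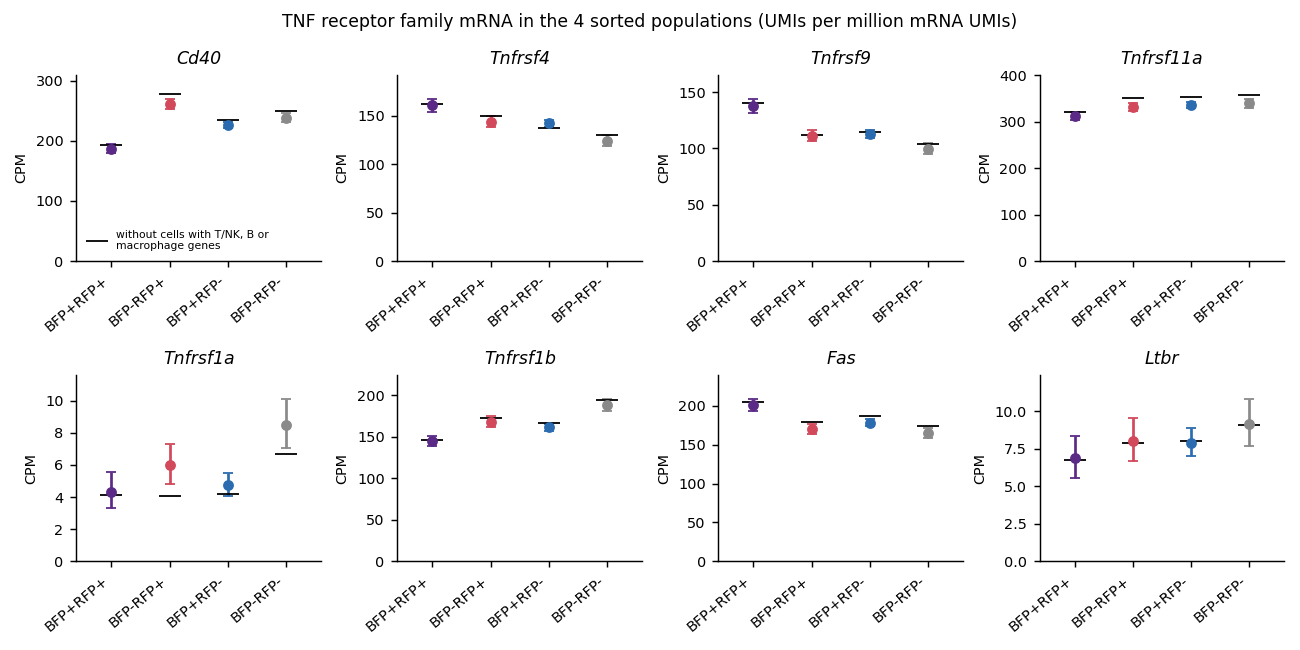
Level of each receptor gene in the 4 sorted populations, in UMIs per 1000000 mRNA UMIs (CPM). Points are the level over all kept cells with the exact 95% Poisson interval, and black dashes the level without cells that carry T and NK, B or macrophage genes. Tnfrsf4, Tnfrsf9 and Fas are highest in BFP+RFP+ cells, Cd40 and Tnfrsf1b are lowest there, and the Tnfrsf1a dash of BFP-RFP+ cells, at 4.04, lies well below its point at 5.97.

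Whether receptor mRNA differed with expression of the OX40L reporter was read from BFP+ against BFP- cells. A gene is called past the fold where its log2 ratio is at least 0.5 in size. Within RFP+ cells 0 of 8 genes were past the fold, against 16.1% of the 10888 genes with at least 100 UMIs (3.44% higher and 12.6% lower). Within RFP- cells the count was 1 of 8, against 9.73% (3.13% higher and 6.59% lower). Counts of 0 and 1 in 8 are near these background shares and are no result about the receptors as a group. The median gene was itself at -0.10 within RFP+ and -0.07 within RFP- cells, and the median of the 8 receptors at -0.15 and -0.04.

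Cd40 was lower in BFP+RFP+ than in BFP-RFP+ cells by a log2 ratio of -0.48 (-0.56 to -0.41), just short of the fold, and 83.1% of genes had a ratio of smaller size. Within RFP- cells its ratio was only -0.07 (-0.13 to -0.02). Tnfrsf9 was higher in BFP+ cells in both comparisons, at 0.31 (0.21 to 0.40) within RFP+ and 0.18 (0.09 to 0.27) within RFP-. Fas was likewise higher, at 0.24 (0.16 to 0.31) and 0.11 (0.04 to 0.18), and so was Tnfrsf4, at 0.16 (0.07 to 0.24) and 0.20 (0.12 to 0.28). Tnfrsf1b was lower in BFP+ cells by the same amount in both, -0.22. Tnfrsf11a was at -0.09 (-0.15 to -0.03) and -0.02 (-0.06 to 0.03), and the intervals of Ltbr, at -0.22 and -0.21, held 0. Without cells with genes of other lineages the Tnfrsf4 ratio within RFP- cells was 0.08, and without its 5 top cells 0.11. Within RFP+ cells the same steps gave 0.12 and 0.16. With equal weight for each cell the Tnfrsf4 ratio was 0.04 within RFP+ and 0.10 within RFP- cells. Without the deepest 5% of cells it was 0.09 and 0.10.

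The gene past the fold within RFP- cells was Tnfrsf1a, at -0.84 (-1.18 to -0.49). Its ratio within RFP+ cells was -0.46 (-0.96 to 0.01). Tnfrsf1a was also higher in cells with macrophage genes: cells with at least 5 UMIs of that list had 52.5 CPM (39.99 to 67.8), against 4.62 (4.14 to 5.14) in kept cells without genes of other lineages. T and NK gene cells were higher too, at 9.51 CPM (7.16 to 12.4), on 55 UMIs against 59 in macrophage gene cells. Macrophage gene cells numbered 15 in BFP-RFP+ and 21 in BFP-RFP- cells and held 23.4% and 23.0% of the Tnfrsf1a UMIs there. In BFP+RFP+ and BFP+RFP- cells there were 5 and 12 such cells, with 4.92% and 2.96% of the UMIs. Without cells with genes of other lineages, Tnfrsf1a levels were 4.12 CPM in BFP+RFP+, 4.04 in BFP-RFP+, 4.21 in BFP+RFP- and 6.67 in BFP-RFP- cells, and the ratio was 0.03 within RFP+ and -0.67 within RFP-. The difference within RFP+ cells was therefore not seen without those cells, and that within RFP- cells was smaller but still past the fold.

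Cells with a history of Siglech-driven Cre were read as RFP+ against RFP- cells. Within BFP+ cells 0 of 8 genes were past the fold, against 13.4% of 10888 genes (5.37% higher and 8.07% lower), and within BFP- cells 1 of 8, against 12.2% (7.01% higher and 5.18% lower). Tnfrsf9 was higher in RFP+ cells, at 0.29 (0.21 to 0.36) within BFP+ and 0.16 (0.06 to 0.26) within BFP-. Tnfrsf4 was higher by 0.18 (0.11 to 0.25) and 0.22 (0.13 to 0.31), and Tnfrsf1b lower, at -0.16 in each. Fas was at 0.17 (0.11 to 0.24) and 0.05 (-0.03 to 0.13), Tnfrsf11a at -0.11 (-0.16 to -0.06) and -0.03 (-0.09 to 0.02), and Ltbr at -0.20 and -0.19 with intervals that held 0. Cd40 took opposite signs, at -0.28 (-0.34 to -0.21) within BFP+ and 0.13 (0.07 to 0.20) within BFP-, and the difference between both was not tested. Tnfrsf1a was past the fold within BFP- cells by a narrow margin, at -0.50 (-0.91 to -0.11), and at -0.72 without cells with genes of other lineages. The BFP and the RFP comparisons use the same 4 populations, so their ratios are not independent of each other. These populations also differed in their antibody tags, as given below, and the ratios between them were not adjusted for this.

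**Figure D2:**
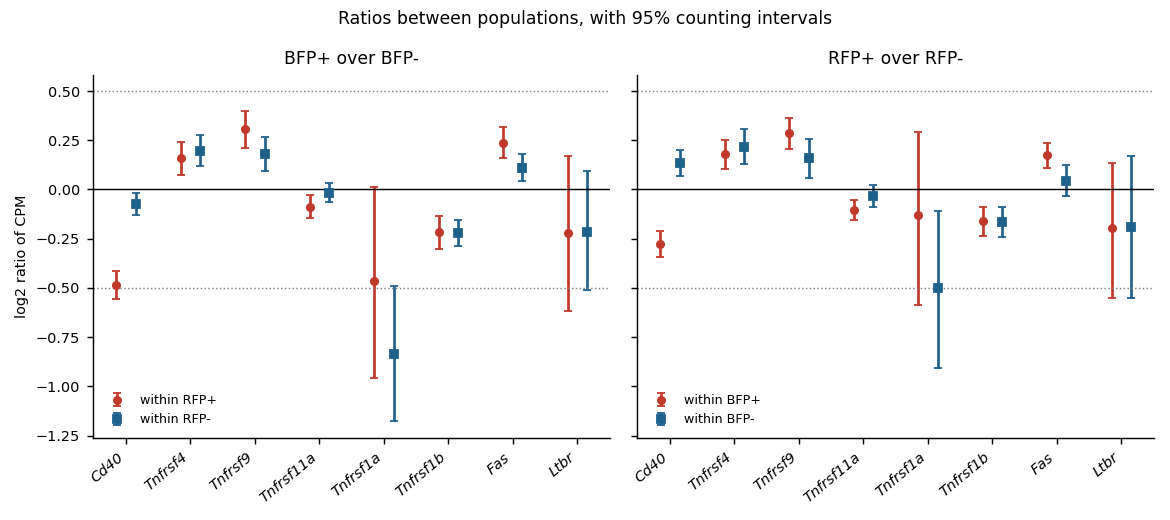
Log2 ratios of receptor levels, BFP+ over BFP- cells on the left and RFP+ over RFP- cells on the right, each within both states of the other reporter. Bars are exact 95% counting intervals and dotted lines mark a log2 ratio of 0.5 in size. Tnfrsf4 and Tnfrsf9 lie above 0 in all 4 comparisons, Tnfrsf1b lies below 0 in all 4, and Cd40 changes sign between the RFP comparisons.

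Receptor levels also differed by antibody tag. Cells of each population were cut into 3 parts of about equal size by their UMIs of a tag, low, middle and high. The high part was set over the low part. Cuts were made within each population, so a part does not hold the same tag counts in all of them. The high CD172a part of BFP+RFP+ cells began at 87 tag UMIs, and the low part of BFP-RFP- cells reached 86. The mRNA of the tagged protein followed its tag in each population, with log2 ratios of 4.37 to 6.23 for Itgam (CD11b), 4.16 to 4.98 for Cd8a, 1.68 to 2.28 for Sirpa (CD172a) and 1.43 to 3.62 for Mgl2 (CD301b). A gene is called for a tag where its ratio was at least 0.5 in size with 1 sign in all 4 populations. For CD172a 3 of 8 receptors were called, Cd40, Tnfrsf1a and Ltbr, all higher, where 6.54% of 10888 genes were called, 2.26% as higher and 4.28% as lower. With a cut at the median, and so 2 parts in place of 3, this count was 0. For CD11b 1 of 8 was called, Tnfrsf1a, higher, against 6.38% of genes, 2.93% as higher and 3.45% as lower. For CD8a 1 of 8 was called, Tnfrsf1a, lower, against 3.16% of genes, 0.974% as higher and 2.19% as lower. No receptor was called for CD301b, against 2.99% of genes, 0.505% as higher and 2.49% as lower. Cells with more tag also had more mRNA: the median in BFP+RFP+ cells was 12892, 14865.5 and 18682 mRNA UMIs in the low, middle and high CD11b parts. Ratios are therefore also given for cells cut by their tag UMIs per mRNA UMI. Sets of 4 values by tag stand in 1 order, BFP+RFP+ then BFP-RFP+, and then BFP+RFP- before BFP-RFP- cells. The populations themselves also differed in tag. In that order, the median CD8a tag UMIs per cell were 121, 63, 42 and 40, and those of CD172a 64, 99, 92 and 129. Whether the receptor differences between populations go with these tag differences was not tested.

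By CD172a, a receptor of type 2 conventional dendritic cells and other myeloid cells also known as SIRP alpha, Cd40 and Tnfrsf4 ran in opposite directions. In BFP+RFP+ cells Cd40 was at 146, 168 and 223 CPM in the low, middle and high part. The same parts held 179, 202 and 360 CPM in BFP-RFP+ cells, 169.5, 206 and 276 CPM in BFP+RFP- cells, and 169, 208 and 308 CPM in BFP-RFP- cells. Cd40 was thus higher with CD172a in each population, by 0.61, 1.01, 0.70 and 0.86 in that order, each past the fold. Tnfrsf4 was at 157, 184 and 146 CPM in the low, middle and high part of BFP+RFP+ cells, where it showed little order. In BFP-RFP+ cells it was at 215, 140 and 101 CPM, in BFP+RFP- cells at 184, 146 and 114 CPM, and in BFP-RFP- cells at 223, 111 and 70.4 CPM. Its ratios were -0.11, -1.09, -0.69 and -1.66, so Tnfrsf4 was lower with CD172a in each population and past the fold in 3 of 4. In BFP+RFP+ cells the interval of that ratio held 0 (-0.26 to 0.05).

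Tag UMIs per mRNA UMI, which divide the tag by cell depth, gave -0.63, -1.26, -1.24 and -2.02 for Tnfrsf4 by CD172a, past the fold in all 4 populations. The depth of the parts cut in this way was not read, so they may still differ in depth. For Cd40 by CD172a they gave 0.14, 0.96, 0.46 and 0.51, higher in all 4 but past the fold in 2. Tnfrsf9 was lower with CD172a, at -0.13, -0.44, -0.22 and -0.77, though with tag UMIs per mRNA UMI it was at 0.44 in BFP+RFP+ cells. T and NK gene cells lay in the high CD172a part less often, 5.34% against 12.4% of the low part of BFP+RFP+ cells. With cells of other lineages left out, the Tnfrsf4 ratios were -0.28, -1.13, -0.61 and -1.64.

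The sparse receptors were also higher with CD172a. In the same order of populations, Tnfrsf1a had ratios of 1.502, 1.82, 0.74 and 0.98 and Ltbr of 1.26, 0.54, 0.63 and 0.52. The Ltbr intervals held 0 in BFP-RFP+ and BFP-RFP- cells. Macrophage gene cells, with 24.9 CPM of Ltbr (16.6 to 36.0) against 7.98 (7.34 to 8.66) in kept cells without genes of other lineages, lay in the high CD172a part more often, 3.69% against 0 of the low part in BFP-RFP+ cells. Without cells with genes of other lineages the Ltbr ratios were 0.96, 0.31, 0.44 and 0.29, and Tnfrsf1a in BFP-RFP- cells was at 0.46, so that of the 3 receptors Cd40 was the only one past the fold in all 4. With tag UMIs per mRNA UMI, Tnfrsf1a was at 1.85, 1.23, 0.60 and 1.14 and Ltbr at 0.95, 0.70, 0.55 and 0.78. In that cut both were past the fold in all 4 populations, and Cd40 was not. The ratios of Tnfrsf1b by CD172a ran between 0.05 and 0.43, and between 0.31 and 0.63 with tag UMIs per mRNA UMI. Those of Tnfrsf11a ran between -0.43 and 0.03 and those of Fas between -0.40 and 0.04.

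By CD11b, the integrin alpha M chain of myeloid cells, Tnfrsf1a had the largest ratios of the 8. Its level was 1.76, 1.91 and 7.70 CPM in the low, middle and high part of BFP+RFP+ cells and 3.03, 2.55 and 10.7 CPM in BFP-RFP+ cells. BFP+RFP- cells had 3.12, 2.49 and 7.73 CPM, and BFP-RFP- cells 3.54, 5.67 and 14.6 CPM. The level thus differed mainly in the high part, and the ratios were 2.04 (0.97 to 3.52), 1.77 (0.95 to 2.80), 1.29 (0.71 to 1.95) and 2.00 (1.24 to 2.94). Without cells with genes of other lineages they were 2.00, 1.88, 1.37 and 1.39, lower in BFP-RFP- cells and close to these values in the other populations. Cd40 was higher with CD11b as well, at 0.35, 0.54, 1.02 and 0.60, but with tag UMIs per mRNA UMI only 0.01, 0.28, 0.85 and -0.06. Ltbr was above 0 in each population, between 0.05 and 0.81. The other receptors had ratios by CD11b of both signs, between -0.25 and 0.30 for Tnfrsf4, -0.07 and 0.41 for Tnfrsf9, -0.27 and 0.04 for Tnfrsf11a, -0.49 and 0.14 for Tnfrsf1b, and -0.20 and 0.01 for Fas.

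By CD8a, Tnfrsf4 was higher in each population, at 0.79 (0.62 to 0.96) in BFP+RFP+, 0.44 (0.29 to 0.60) in BFP-RFP+, 0.55 (0.45 to 0.65) in BFP+RFP- and 0.38 (0.21 to 0.55) in BFP-RFP- cells. The levels behind the first of these were 111, 156 and 193 CPM in the low, middle and high part. With tag UMIs per mRNA UMI the ratios were 0.58, 0.48, 0.36 and 0.07, with the last value, in BFP-RFP- cells, near 0. Tnfrsf1a was lower, at -1.22, -0.75, -0.79 and -1.22, though at only -0.26 in BFP-RFP+ cells with tag UMIs per mRNA UMI, and Tnfrsf1b lower by less, at -0.20, -0.33, -0.28 and -0.28. Cd40 by CD8a had ratios of 0.03, -0.31, -0.58 and 0.04, with no common direction, but with tag UMIs per mRNA UMI it was lower in all 4 populations, at -0.24, -0.70, -0.94 and -0.21. The ratios by CD8a ran between -0.37 and 0.13 for Tnfrsf9, -0.28 and -0.01 for Tnfrsf11a, 0.08 and 0.28 for Fas, and -0.72 and 0.27 for Ltbr.

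By CD301b, a C-type lectin of a subset of dermal dendritic cells, Cd40 was higher in each population, at 0.49, 0.96, 0.56 and 0.91, and missed the call only in BFP+RFP+ cells. With tag UMIs per mRNA UMI it was at 0.03, 0.71, 0.31 and 0.56. Tnfrsf4 by CD301b was at -0.02, -0.69, -0.04 and -1.11, so its ratio was past the fold in the BFP- populations and near 0 in the BFP+ ones. The BFP+ populations also spanned less of this tag. Median CD301b UMIs of the low and high part were 19 and 43 in BFP+RFP+ and 20 and 118 in BFP-RFP+ cells. They were 21 and 77 in BFP+RFP- and 24 and 170.5 in BFP-RFP- cells. With tag UMIs per mRNA UMI the Tnfrsf4 ratio was past the fold in all 4, at -0.55, -0.88, -0.69 and -1.21. Ltbr by CD301b was between 0.06 and 0.74. The ratios of the rest had both signs, between -0.39 and 0.07 for Tnfrsf9, -0.28 and 0.04 for Tnfrsf11a, -0.15 and 0.31 for Tnfrsf1a, -0.09 and 0.40 for Tnfrsf1b, and -0.24 and 0.06 for Fas. Tnfrsf1a was at 1.08 in BFP+RFP+ cells with tag UMIs per mRNA UMI.

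**Figure D3:**
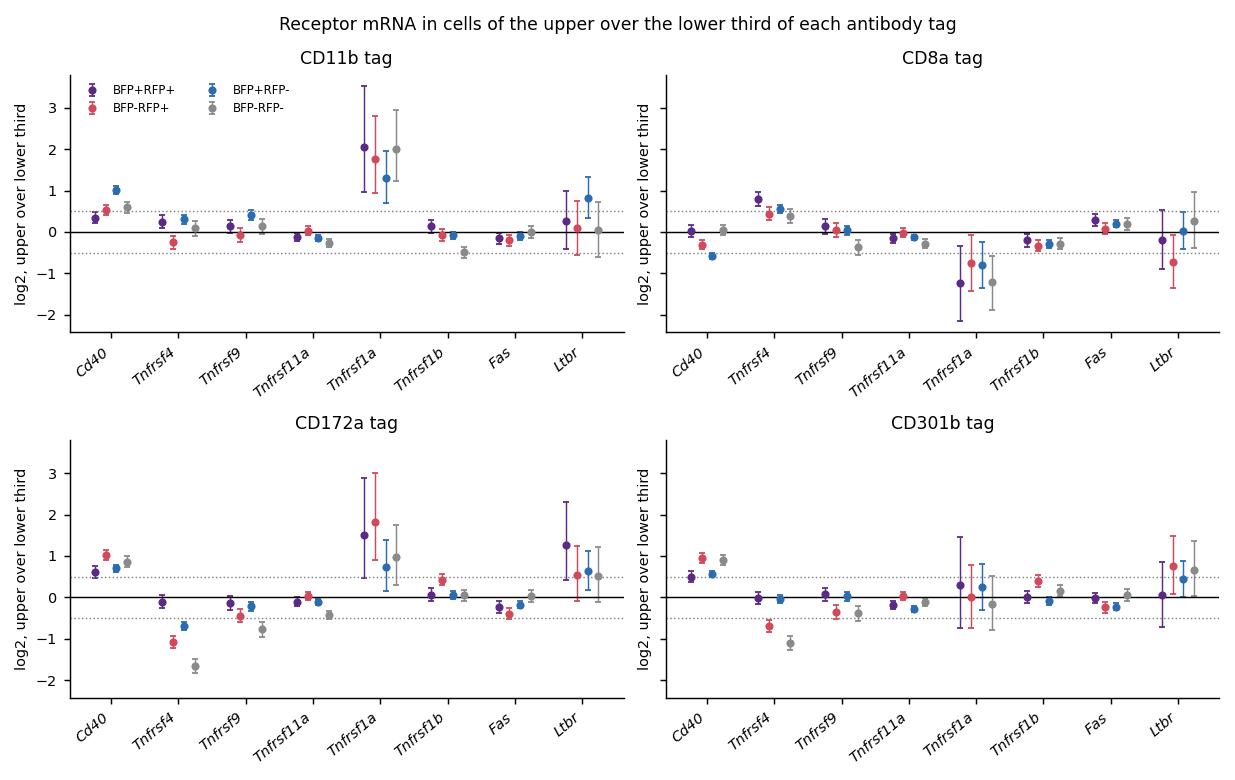
Log2 ratio of receptor levels in the high over the low part of cells by each antibody tag, with 3 parts of about equal size, within each of the 4 populations. Bars are exact 95% counting intervals and dotted lines mark 0.5 in size. By CD172a all 4 Cd40 points lie above the dotted line and all 4 Tnfrsf4 points below 0, and by CD11b all 4 Tnfrsf1a points lie between 1.29 and 2.04.

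A split by CD172a and CD8a together, chosen after these values had been seen, gave a group with more Cd40 and less Tnfrsf4 than another. Each population was cut at its medians of both tags. Among BFP-RFP+ cells, those high in CD172a and low in CD8a had 378 CPM of Cd40 and 76.1 CPM of Tnfrsf4, and those low in CD172a and high in CD8a had 159.7 CPM of Cd40 and 221 CPM of Tnfrsf4. The quotient of Tnfrsf4 over Cd40 UMIs, which compares groups of cells and does not rank the genes, was 0.201 in the first group and 1.39 in the second. The same groups had 0.518 and 1.22 in BFP+RFP+, 0.299 and 1.41 in BFP+RFP- and 0.204 and 1.26 in BFP-RFP- cells. The order was the same in all 4 populations and the gap was smallest in BFP+RFP+ cells. Cells with genes of other lineages made up 5.58% of the first and 9.91% of the second group in BFP-RFP+ cells.

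Ligands of these receptors were read from a list of 9 genes, of which 7 had at least 100 UMIs. Tnfsf4, the gene marked by BFP, was at 305 CPM in BFP+RFP+, 53.0 in BFP-RFP+, 102 in BFP+RFP- and 19.8 in BFP-RFP- cells, which the sort itself fixes for BFP. Tnfsf9, the gene of 4-1BBL, was higher in RFP+ cells by 1.13 within BFP+ and 0.96 within BFP-. Tnfsf11, the gene of RANK ligand, was higher in RFP+ cells by 2.54 and 2.26, on 254 UMIs of which 5 cells held 38.2% and cells with genes of other lineages 31.1%. In BFP+ cells it was higher by 1.14 within RFP+ and 0.87 within RFP-, and Lta, a lymphotoxin chain, by 0.59 and 0.79. Leaving out Tnfsf4, past the fold and higher in BFP+ cells were 2 of 6 ligand genes within RFP+ and 3 of 6 within RFP-, where 3.44% and 3.13% of genes were past the fold and higher. The third within RFP- was Cd40lg, the gene of CD40 ligand, with 96.0% of its 124 UMIs in cells with genes of other lineages. Higher in RFP+ cells were 3 of 7, Tnfsf4 included, within BFP+ and 6 of 7 within BFP-, against 5.37% and 7.01%. None was lower past the fold in these comparisons. The 6 genes higher in RFP+ cells within BFP- included Cd40lg, with 96.0% of its UMIs in cells with genes of other lineages. They also included Ltb, of the same list, with 44.9% of its UMIs in such cells. That count thus rests in part on genes read largely from those cells, and no count without them is given.

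Receptor levels also differed with ligand mRNA in the same cell, a comparison likewise added after seeing the data. Cells with a Tnfsf9 UMI after thinning had 280 CPM of Cd40 in BFP+RFP+, 505 in BFP-RFP+, 422 in BFP+RFP- and 534 in BFP-RFP- cells. Cells without one had 155, 210.0, 199 and 209 CPM in the same order. The log2 ratios were 0.85 (0.74 to 0.97), 1.27 (1.17 to 1.36), 1.08 (1.01 to 1.16) and 1.35 (1.23 to 1.47), and between 0.82 and 1.30 without cells with genes of other lineages. Tnfrsf9, the receptor that Tnfsf9 binds, did not share this, with ratios of -0.27, -0.26, -0.54 and 0.14. Tnfrsf1b was lower in the cells with Tnfsf9, at -0.39, -0.46, -0.56 and -0.70, and so was Tnfrsf11a, at -0.63, -0.41, -0.64 and -0.17. The cells with Tnfsf9 were deeper, with median depths of 18413 against 15019.5 mRNA UMIs in BFP+RFP+ cells. Cells with a Tnfsf4 UMI had Tnfrsf4 ratios of 0.20, 0.49, 0.21 and -0.02, and the interval of the last held 0. Tnfrsf4 was also higher in the cells with Tnfsf9, at 0.13, 0.63, 0.29 and 0.43, where the interval of the first held 0. Higher Tnfrsf4 was thus not particular to cells with its own ligand. Tnfrsf11a was lower in the cells with Tnfsf4 by similar amounts, at -0.27, -0.22, -0.28 and -0.21. Tnfrsf9, at -0.25, -0.22, -0.39 and -0.57, and Tnfrsf1b, at -0.38, -0.19, -0.32 and -0.76, were lower in them too. Cd40 was at 0.60, 0.14, 0.11 and -0.19.

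Across 16 groups of cells, each population cut at its medians of the CD11b and CD301b tags, Tnfrsf4 and Tnfrsf9 varied together, with a Pearson correlation of 0.77. The groups held 183 to 617 cells each, came from 1 capture and share the tag cuts, so the values are a description. Cd40 and Tnfrsf4 had -0.43, Cd40 and Ltbr 0.68, and Tnfrsf9 and Tnfrsf1b -0.76. Across single cells within a population the strongest pair was Tnfrsf11a with Tnfrsf1b, at 0.28 to 0.35. Cd40 and Tnfrsf4 were weakly positive across single cells, at 0.11 to 0.19, the opposite sign to that over groups. Tnfrsf9 and Tnfrsf1b also took the opposite sign across single cells, at 0.08 to 0.195. The other pairs named were weak there, Tnfrsf4 and Tnfrsf9 at 0.14 to 0.18 and Cd40 and Ltbr at -0.03 to 0.04. The median thinned cell had UMIs of 3 of the 8 receptors, and 69.3% of BFP+RFP+, 65.4% of BFP-RFP+, 64.8% of BFP+RFP- and 62.9% of BFP-RFP- cells had 3 or more.

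**Figure D4:**
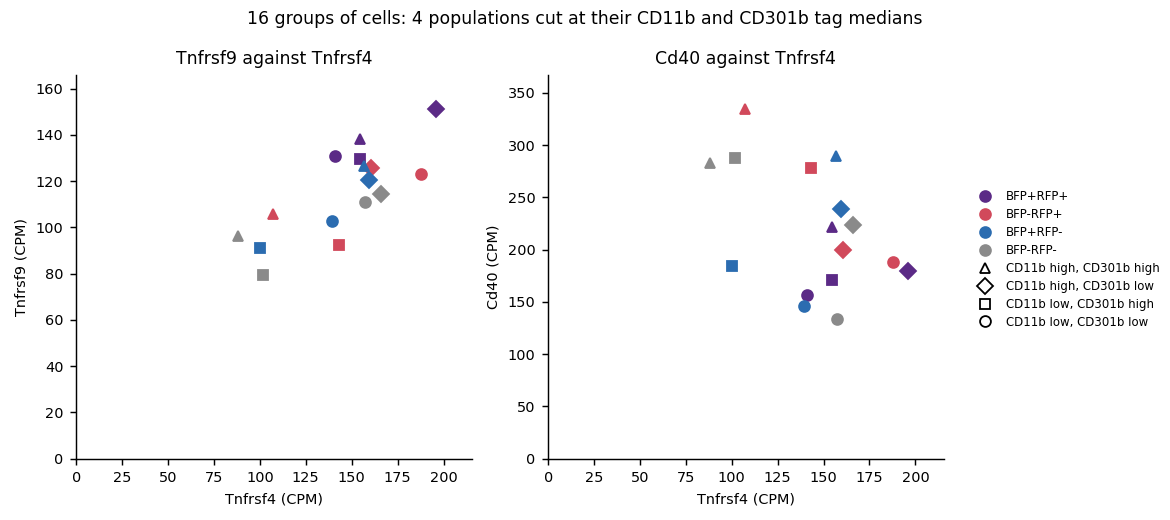
Tnfrsf9 (left) and Cd40 (right) against Tnfrsf4, in CPM, over 16 groups of cells: the 4 populations (colours) cut at their medians of the CD11b and CD301b tags (shapes). Tnfrsf9 climbs with Tnfrsf4 (correlation 0.77), and the highest Cd40 level, 334 CPM, belongs to BFP-RFP+ cells high in both tags, at 107 CPM of Tnfrsf4.

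The genes whose levels over the 16 groups were most like those of each receptor were taken among 6288 genes with at least 1000 UMIs. For Cd40 they were Ccl17, a chemokine that attracts CCR4+ T cells (correlation 0.90), Ifrd1 and S100a11 (0.89 each). For Tnfrsf9 the list was Ccnd2, a D-type cyclin (0.95), Ccdc85b and Tubb2b (0.93 each), and for Tnfrsf4 Limd2, Mettl27 (0.87 each) and Hvcn1, a proton channel (0.86). Tnfrsf1b was followed by Far1, Camkk2 (0.92 each) and Pfkfb3 (0.895), and Tnfrsf1a by Slfn5 (0.94), Depdc7 and Wfdc17 (0.93 each). The nearest genes were Ncoa3 (0.83) for Tnfrsf11a, Snapin (0.85) for Fas and Spsb1 (0.89) for Ltbr.

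Promoter sequences are shown for Tnfrsf4 and Tnfrsf9, the pair that varied together over those groups. RefSeq promoter windows, of 250 bases before and 50 after a start, were matched by symbol for 7 of the 8 genes, all but Cd40, with 8 windows in all. Positions are on the build GRCm38.p6. Both strands were searched for the letters of a kappa B motif (GGG, any 2 bases, TTTCC), TTCNNNGAA (a STAT motif) and TGANTCA (an AP-1 motif), and matches are in capitals.
Tnfrsf4, chr4:156013445-156013744, plus strand: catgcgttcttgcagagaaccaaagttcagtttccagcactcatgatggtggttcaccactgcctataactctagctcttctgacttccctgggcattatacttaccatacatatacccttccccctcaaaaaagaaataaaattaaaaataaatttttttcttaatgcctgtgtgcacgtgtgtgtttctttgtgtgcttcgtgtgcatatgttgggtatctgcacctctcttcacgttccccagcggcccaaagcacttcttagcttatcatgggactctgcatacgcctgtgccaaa
Tnfrsf9, first start, chr4:150919905-150920204, plus strand: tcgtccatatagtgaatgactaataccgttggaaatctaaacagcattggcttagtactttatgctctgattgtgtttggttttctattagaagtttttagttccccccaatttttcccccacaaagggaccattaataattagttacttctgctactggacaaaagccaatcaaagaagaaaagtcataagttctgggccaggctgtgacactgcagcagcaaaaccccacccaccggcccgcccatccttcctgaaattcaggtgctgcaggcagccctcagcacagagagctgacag
Tnfrsf9, second start, chr4:150927749-150928048, plus strand: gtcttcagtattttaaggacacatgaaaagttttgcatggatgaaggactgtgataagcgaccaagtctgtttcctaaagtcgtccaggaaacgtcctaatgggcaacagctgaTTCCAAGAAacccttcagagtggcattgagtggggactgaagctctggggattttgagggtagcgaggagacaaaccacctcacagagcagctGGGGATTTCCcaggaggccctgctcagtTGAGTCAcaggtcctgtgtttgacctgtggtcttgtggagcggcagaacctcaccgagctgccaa
The second Tnfrsf9 window held 1 match to each motif, TTCCAAGAA, GGGGATTTCC and TGAGTCA, and the other windows shown held none. Of all 32851 windows, 1.63% held the kappa B letters, 8.30% the STAT letters and 7.81% the AP-1 letters. Among the 8 receptor windows the counts were 1, 4 and 2: Fas held STAT and AP-1 letters, and Tnfrsf1a and Tnfrsf1b STAT letters. A match in these letters is a description of the sequence only. In RefSeq, Tnfrsf4 lies next to Tnfrsf18 on chromosome 4, Tnfrsf1b next to Tnfrsf8 on chromosome 4, and Ltbr and Tnfrsf1a are separated by Scnn1a alone on chromosome 6.

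Cells with genes of other lineages had receptor levels of their own. T and NK gene cells had less Cd40 than kept cells without such genes, 112 CPM (104 to 121) against 238 (235 to 242), and 166 CPM of Tnfrsf4 (156 to 177) against 143 (140.0 to 146). Of their 962 Tnfrsf4 UMIs 162 were in the 1 cell named above, and without it, a step added after seeing the data, they had 141 CPM (131 to 151), within counting error of the other cells. Their thinned share with a Tnfrsf4 UMI was lower, at 26.3% (21.3 to 31.7) against 36.7% (35.3 to 38.2). Macrophage gene cells had less Tnfrsf4, Tnfrsf9, Fas and Tnfrsf11a, the last at 174 CPM (151 to 201) against 347 (343 to 351), and B gene cells had 81.9 CPM of Tnfrsf4 (67.8 to 98.1) and 56.9 of Tnfrsf9 (45.3 to 70.6). The thinned shares of B gene cells were 13.6% for Tnfrsf4 and 12.1% for Tnfrsf9, at a median depth of 5781 mRNA UMIs against 14730 in kept cells without such genes. All these classes also carried dendritic cell genes, so they are cells with these genes rather than types. Ccr7 and Fscn1 were lower in them, however. Ccr7 was at 1062 CPM in T and NK, 726 in B and 771 in macrophage gene cells, against 1475 in kept cells without such genes. Fscn1 was at 1239, 1059 and 1140 CPM in the same order, against 2270. Near the limit of 5 UMIs, with 3 to 7, were 266 cells for the T and NK list, 56 for the B list and 28 for the macrophage list.

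**Figure D5:**
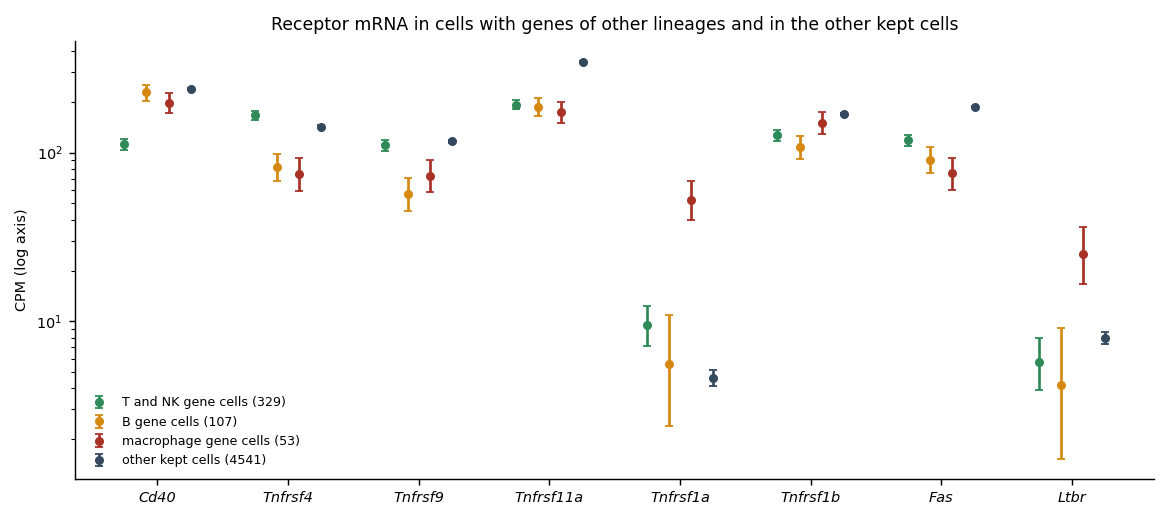
Level of each receptor gene, in CPM on a log axis, in kept cells with at least 5 UMIs of T and NK, B or macrophage genes and in the other kept cells. Bars are exact 95% Poisson intervals, and cell numbers are in the legend. Tnfrsf1a is at 52.5 CPM in macrophage gene cells against 4.62 in the other kept cells, and Ltbr at 24.9 against 7.98.

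Other genes of the pathway were read from lists of receptors and adaptors. Of 20 other receptors of the family 14 had at least 100 UMIs. Ngfr, a neurotrophin receptor, was lower in BFP+ cells, at log2 ratios of -2.23 within RFP+ and -1.47 within RFP- on 125 UMIs, and Tnfrsf21, death receptor 6, at -1.74 and -0.62. Tnfrsf11b, the decoy receptor osteoprotegerin, was higher in RFP+ cells, at 22.0 against 4.47 CPM within BFP+ and 20.6 against 10.3 CPM within BFP-. Across the 14, 2 were higher and 5 lower past the fold for BFP within RFP+, against 3.44% and 12.6% of all genes, and 2 and 3 within RFP-, against 3.13% and 6.59%. For RFP the counts were 3 and 2 within BFP+, against 5.37% and 8.07%, and 3 and 0 within BFP-, against 7.01% and 5.18%. These counts included Tnfrsf26, at -0.81 for BFP within RFP+, 0.73 for BFP within RFP- and -1.09 for RFP within BFP+. Of its 109 UMIs 93.6% were in cells with genes of other lineages, as were 28.4% for Tnfrsf13b and 23.4% for Tnfrsf21, also counted. The counts thus rest in part on such cells, and none without them is given. Among 12 TRAF adaptors and partners, Traf5 was lower in RFP+ cells, at 20.2 against 34.4 CPM within BFP+ and 27.3 against 41.5 CPM within BFP-, log2 ratios of -0.76 and -0.60. In each comparison 0 or 1 member of the adaptor list was past the fold in each direction, near the same background shares. Of the death domain adaptors and partners of caspase 8, 8 of 9 had enough UMIs and none was past the fold in any of the 4 comparisons, whose medians lay between -0.10 and 0.01. With 9.73% to 16.1% of all genes past the fold in those comparisons, a count of 0 in 8 is near the background and is no result about these adaptors.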

How the data were processed

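The authors deposited 1 matrix of raw UMI counts with 22548 genes, 4 antibody tags and 4 hashtags, with its gene names, barcodes and tag barcodes. Per the file headers, the software was Cell Ranger 7.0.0. The libraries were 10x 3' v3.1 per the labels' protocols, and GRCm39 (mm39) is the build in the submitters' processing notes. How barcodes were called as cells is not given in the sources used here. The values carry no normalization.

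Here, cells were kept as stated in the report, with Python 3.11.15, NumPy 2.4.6, SciPy 1.17.1, pandas 2.3.3 and matplotlib 3.10.9. Barcodes mixing populations were removed by the hashtag limit, and 699 barcodes fell under it. Doublets within a population were not removed in the main values. UMIs were summed per population, 80355067 in all, and log2 ratios had a pseudocount of 0.5 UMI. Intervals are exact Poisson (levels), conditional binomial (ratios) and Clopper-Pearson (shares). The ratio was tested on simulated data.

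All 8 receptors are named in each comparison by reporter and by tag. From the lists, genes with at least 100 UMIs past the fold with 1 sign in both strata of a reporter are named, at most 4 per list and direction. The genes most like a receptor are the 3 with the highest correlation of log2(CPM + 1), given in full or by the first. Tnfrsf18 and Tnfrsf8 are named as neighbours only. The receptors, lists and rules were chosen with earlier results of these data known. Alternatives changed cell filters, scaling, cell weights, pseudocount, fold and tag cuts. Cells split by CD172a with CD8a or by ligand UMIs, shares held by the top cells and receptors per cell were added after values had been seen.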

Additional observations from a re-analysis of the deposited data

Results flagged for a closer look

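Cd40 took opposite directions with the RFP reporter in the BFP states. Its log2 ratio of RFP+ over RFP- cells was -0.28 within BFP+ cells, on levels of 187 CPM in BFP+RFP+ and 226 CPM in BFP+RFP- cells. Within BFP- cells it was 0.13, on levels of 262 CPM in BFP-RFP+ and 238 CPM in BFP-RFP- cells. Both counting intervals exclude 0, and each population is 1 sample, so the difference between the BFP states was not tested. Over the alternatives the ratio lay between -0.33 and -0.24 within BFP+ and between 0.08 and 0.16 within BFP- cells. Macrophage, T and NK and B genes differed between the same populations, and without the cells that carry them the ratios were -0.28 and 0.15.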

How the results depend on the processing

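Of 72 alternative counts of receptors past the fold, 58 were unchanged or within 1.5 times. For BFP within RFP+ cells the count was 1 and not 0 in 2 ways: Cd40 without cells with genes of other lineages (limits of 5, 3 or 10 UMIs), and Tnfrsf1a with a hashtag share of 90% or more and without the 5 top cells of each receptor. Over all alternatives the Cd40 ratio lay between -0.54 and -0.39 and that of Tnfrsf1a between -0.59 and 0.09. It was 0 and not 1 at a fold of 1 for BFP within RFP- and for RFP within BFP- cells, and for the second also with scaling by the median gene or a pseudocount of 5 UMIs. By tag, the count was 0 and not 1 for CD8a and 0 and not 3 for CD172a with cells cut into 2 parts by tag in place of 3. With tag UMIs per mRNA UMI it was 0 and not 1 for CD8a and 1 and not 0 for CD301b, and without cells with genes of other lineages 1 and not 3 for CD172a. For CD172a the count of 3 stayed with tag UMIs per mRNA UMI, but with Tnfrsf4 in place of Cd40. The cause was not tested.

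Of 352 alternative ratios between populations 324 stayed inside the main counting interval and 5 had the opposite sign; of 768 between tag levels, 657 and 58. Without thinning, shares of cells were 1.24 to 3.39 times those given. Of 49 alternative receptor levels in cells with genes of other lineages, 24 stayed inside the main counting interval and 25 did not, so these levels depend on the UMI limit. Tnfrsf1a in macrophage gene cells was at 44.2 and 57.2 CPM at limits of 3 and 10 UMIs. No paired analysis was possible because the populations are single samples of 1 pool. Tnfrsf1a and Ltbr, with at most 169 and 281 UMIs in a population, limit what their ratios can show.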

Other observations

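Few cells held much of the Cd40 and Tnfrsf4 mRNA. The top 10% of cells held 41.7% to 61.1% of the Tnfrsf4 UMIs over the populations and 49.3% to 57.3% of the Cd40 UMIs, against 37.9% to 43.4% for Tnfrsf9, which overlaps Tnfrsf4, 29.8% to 33.3% for Fas, 31.1% to 32.7% for Tnfrsf11a and 32.8% to 35.9% for Tnfrsf1b. In cells with at least 1 UMI, the mean number of Tnfrsf4 UMIs was nearly the same in all populations, 4.28 to 4.49, while the share of such cells was 60.3% in BFP+RFP+ and 42.4% in BFP-RFP- cells before thinning. For Cd40 the mean in such cells was 4.50 to 6.16 and the share 65.8% to 69.7%. Between populations, Tnfrsf4 thus differed more in the share of cells and Cd40 more in the UMIs of such cells.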
